A study of Mus musculus with 6 samples.

Results

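The EGF receptor family and its ligands were read in bulk liver RNA as 8 genes, chosen by symbol from the 16603 rows of the authors' count table: the receptor genes Egfr, Erbb2 and Erbb3 and the ligand genes Egf, Tgfa, Areg, Hbegf and Btc. All 8 symbols were found, and 6 of the 8 had enough reads to be tested. The libraries were 3 labelled WT, called wild-type here, and 3 labelled Mdr2 knockout, all from mouse liver. Mdr2 is the protein of the gene Abcb4, a hepatocyte pump that brings phospholipid into bile, and mice without it develop bile duct injury with scarring. The labels give no age, sex, strain or allele and do not say whether the libraries of a group came from different animals, so the p-values measure the spread between these libraries, which may be technical.

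The receptors of this family are membrane tyrosine kinases that act in pairs. The ligands are made as membrane-bound precursors, are released by surface proteases, and on binding cause the receptors to pair and to signal through the RAS-ERK and PI3-kinase routes. ERBB2 binds no known ligand and serves as a partner, and ERBB3 has a weak kinase and binds neuregulins. In liver, EGFR is known for its high level on hepatocytes and for its part in regeneration.

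Library totals ran from 17100393 to 18124467 counts, and libraries were scaled by TMM factors, which set the bulk of genes as the reference. Levels below are read counts per 1000000 of the scaled total (CPM). The gene of the knockout itself, Abcb4, had 5190, 5776 and 4330 counts in labelled wild-type and 10071, 10188 and 8347 counts in labelled Mdr2-knockout replicates 1, 2 and 3. It was thus higher in the libraries labelled knockout (log2 fold change 0.57, edgeR adjusted p = 0.00389), which goes against the label, and a total per gene does not show which exons the reads came from. The groups are therefore named by their labels, and all directions are those of the labelled libraries. Albumin (Alb), the defining hepatocyte transcript, stood at 85388 ± 4348 and 49467 ± 848 CPM (SD, n = 3 per group).

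Of 6 tested members, 4 rose in labelled Mdr2-knockout liver and 0 fell. The 4 were Erbb2, Tgfa, Hbegf and Btc, while Egfr and Erbb3, the most abundant members, did not pass. Passing means an edgeR quasi-likelihood adjusted p under 0.05 over all 12612 tested genes. Of all tested genes, 37.1% passed: 20.9% of the tested genes were higher and 16.3% lower, so calls were common in this comparison. Rises made up 56.2% of all calls under TMM, 67.2% under upper-quartile scaling and 94.7% under total counts. Total counts moved the median over all genes up by 0.29 on the log2 scale. The median over the 6 tested members was 0.74 against 0.01 over all tested genes. Hbegf met the low-count filter in all 3 labelled Mdr2-knockout libraries and in 2 of the labelled wild-type libraries, so the number of members called is a description only. In bulk RNA, a different number of cells of a type cannot be told apart from a different amount of RNA per cell.

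**Figure D1:**
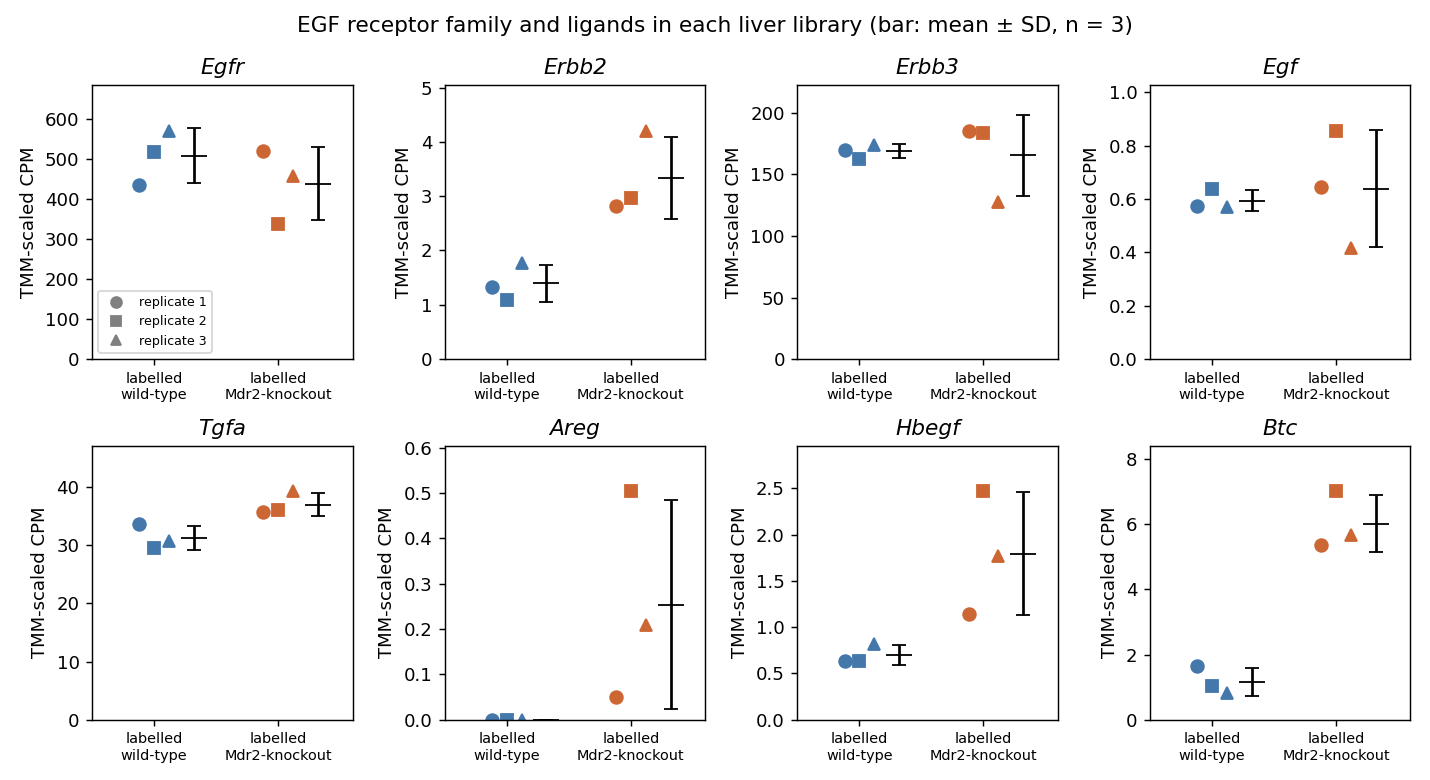
TMM-scaled CPM (y axis, linear from 0, own scale in each panel) of the 8 genes in the 3 labelled wild-type (blue) and 3 labelled Mdr2-knockout (orange) libraries, with the mean ± SD in black. The groups do not overlap for Erbb2, Tgfa, Hbegf, Btc and Areg (not tested, with 1 count in labelled Mdr2-knockout replicate 1), and they overlap for Egfr, Erbb3 and Egf. Of all tested genes, 51.3% do not overlap between the groups, and 27.6% do not overlap with labelled Mdr2-knockout higher.

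Of the receptors, Egfr (GRCm38 chr11:16752203-16918158, plus strand) was read most. It had 6872, 8132 and 9062 counts in labelled wild-type replicates 1, 2 and 3 and 10506, 6731 and 8816 counts in labelled Mdr2-knockout replicates 1, 2 and 3. The highest and the lowest raw count both lay in the labelled Mdr2-knockout group, and the groups overlapped. The scaled level was 509 ± 68.0 CPM and 439 ± 92.5 CPM (SD, n = 3 per group), and the log2 fold change was -0.21 (SE 0.16, edgeR adjusted p = 0.344). The sign was positive with total-count scaling (0.08), and no alternative tried gave a call.

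Erbb3, the neuregulin receptor (GRCm38 chr10:128567523-128589652, minus strand), had 2672, 2547 and 2758 counts in labelled wild-type and 3742, 3644 and 2457 counts in labelled Mdr2-knockout replicates 1, 2 and 3. The first 2 labelled Mdr2-knockout replicates thus lay above the labelled wild-type libraries and the third below them. Its log2 fold change was -0.03 (SE 0.13, edgeR adjusted p = 0.892), with a level of 169 ± 5.75 CPM against 166 ± 32.9 CPM (SD, n = 3 per group). The sign of this value turned with upper-quartile and total-count scaling and without labelled Mdr2-knockout replicate 3 (0.13), and no call was made in any fit.

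Erbb2, the partner receptor (GRCm38 chr11:98412470-98437716, plus strand), was scarce and rose. It shares 9 exon bases with Mien1 on the opposite strand. Its counts were 21, 17 and 28 in labelled wild-type and 57, 59 and 81 in labelled Mdr2-knockout replicates 1, 2 and 3. Each labelled Mdr2-knockout library held more than any labelled wild-type library. The level went from 1.40 ± 0.345 to 3.34 ± 0.760 CPM (SD, n = 3 per group), which is 2.38-fold. The edgeR adjusted p was 0.00569 at a log2 fold change of 1.25 (SE 0.27), and Erbb2 passed in all 14 alternative fits. Groups that do not overlap were found for 51.3% of all tested genes, and in the higher direction for 27.6%.

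The remaining receptor of the family, Erbb4, which binds neuregulins and some EGF-like ligands, lay near Erbb2 in read number, with no weight for gene length. It had 26, 23 and 24 counts in labelled wild-type and 94, 62 and 88 counts in labelled Mdr2-knockout replicates 1, 2 and 3. It rose 2.66-fold (log2 fold change 1.41, SE 0.24, edgeR adjusted p = 0.00145), with no overlap between the groups. The receptor genes called higher were thus Erbb2 and Erbb4, and the highest level either reached in a library was 4.66 CPM.

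Tgfa, the gene of transforming growth factor alpha (GRCm38 chr6:86195223-86275719, plus strand), was the ligand gene with the most reads. Counts were 528, 463 and 487 in labelled wild-type and 719, 714 and 755 in labelled Mdr2-knockout replicates 1, 2 and 3. Its exons share 118 bases with Gm43917 on the opposite strand. The groups did not overlap, but the scaled rise was small, from 31.3 ± 2.06 to 36.9 ± 1.98 CPM (SD, n = 3 per group). The log2 fold change was 0.24 (SE 0.08, edgeR adjusted p = 0.0363). DESeq2 did not call it (adjusted p = 0.129). Dropping labelled Mdr2-knockout replicate 1, 2 or 3 raised the edgeR adjusted p to 0.0527, 0.0636 or 0.119, and dropping labelled wild-type replicate 2 or 3 raised it to 0.137 or 0.0944. Total-count scaling put the log2 fold change at 0.53.

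Btc, which encodes betacellulin, a ligand of EGFR and ERBB4, showed the steepest rise among the tested members. It had 26, 16 and 13 counts in labelled wild-type and 108, 139 and 109 counts in labelled Mdr2-knockout replicates 1, 2 and 3. The lowest labelled Mdr2-knockout library was far above the highest labelled wild-type library. The level went from 1.16 ± 0.434 to 6.01 ± 0.873 CPM (SD, n = 3 per group), 5.13-fold (log2 fold change 2.36, SE 0.26, edgeR adjusted p = 0.00013). The call held in all 14 alternative fits.

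Hbegf, the heparin-binding ligand, had 10, 10 and 13 counts in labelled wild-type and 23, 49 and 34 counts in labelled Mdr2-knockout replicates 1, 2 and 3. No library of one group reached into the other, and the labelled Mdr2-knockout libraries differed among themselves more than the labelled wild-type libraries did. The level went from 0.698 ± 0.106 to 1.79 ± 0.664 CPM (SD, n = 3 per group), and its log2 fold change was 1.35 with an SE of 0.37 (edgeR adjusted p = 0.0165). Hbegf did not pass when labelled Mdr2-knockout replicate 2 was dropped (edgeR adjusted p = 0.0691), nor when labelled wild-type replicate 1 (0.0531) or replicate 2 (0.06) was.

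Egf, the ligand gene that names the family (GRCm38 chr3:129677565-129755316, minus strand), was hardly read in liver and was not tested. It had 9, 10 and 9 counts in labelled wild-type and 13, 17 and 8 counts in labelled Mdr2-knockout replicates 1, 2 and 3. The scaled ratio of the group sums, 38 over 28 counts, was 1.08 with an exact 95% counting interval of 0.647 to 1.83. No difference was detectable at this depth. Exons of Egf share 607 and 500 bases with the antisense genes Gm42697 and 6330410L21Rik, and since the strand setting is not given in the sources used here, their reads cannot be told apart from those of Egf.

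Areg, which encodes amphiregulin, a ligand of EGFR known from epithelial repair, had 0 counts in each of the 3 labelled wild-type libraries. The labelled Mdr2-knockout replicates 1, 2 and 3 held 1, 10 and 4 counts, and 10 of these 15 reads came from replicate 2. Against a floor of 3 counts over the labelled wild-type group, the labelled Mdr2-knockout group was at least 3.99-fold higher, a log2 bound of 1.99. The exact 95% counting interval of the ratio reaches lower, to 2.86-fold. The floor-based bound was 1.00 on the log2 scale when labelled Mdr2-knockout replicate 2 was dropped and 1.41 when any 1 labelled wild-type library was. Areg stayed under the low-count filter and was not tested in the main fit. In the fit without that filter its edgeR adjusted p was 0.036, and with DESeq2 0.0479. The bound and the interval above reflect counting error alone.

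Labelled Mdr2-knockout replicate 2 thus held the lowest Egfr level of all 6 libraries, 339 CPM, and the highest of Btc, Hbegf, Egf and Areg, with Hbegf at 2.47 and Areg at 0.504 CPM. Its total of 18089598 counts and its 15141 genes with a count were close to those of the other labelled Mdr2-knockout libraries, which had 18124467 and 17356571 counts and 15148 and 15152 such genes.

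**Figure D2:**
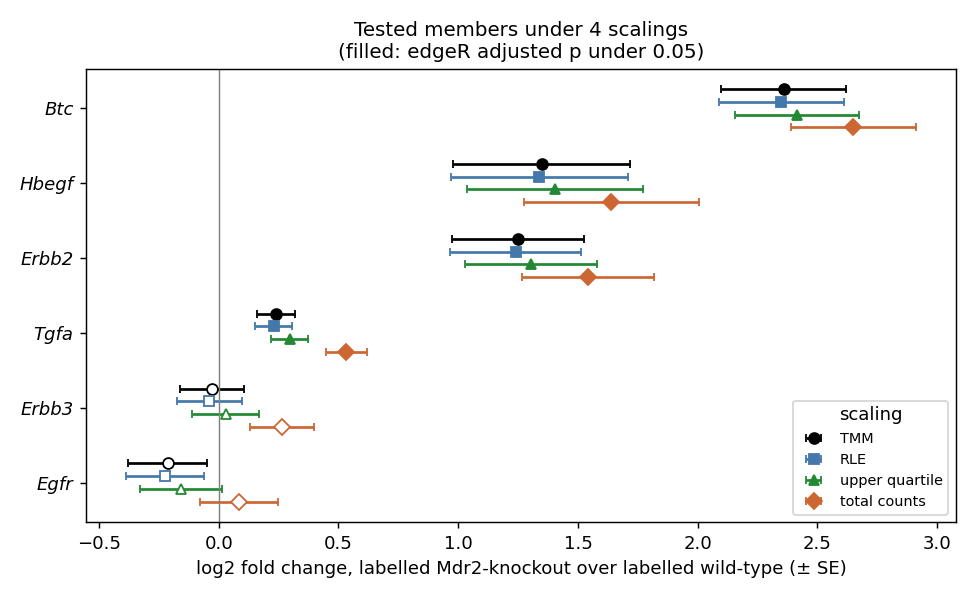
Log2 fold change ± SE (x axis, labelled Mdr2-knockout over labelled wild-type) of the 6 tested members under 4 library scalings, filled where the edgeR adjusted p is under 0.05. Btc, Hbegf, Erbb2 and Tgfa are above 0 and filled under each scaling, while Egfr and Erbb3 are open and change sign with the scaling.

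Areg, with all its reads in labelled Mdr2-knockout liver, and Btc, the tested member with the steepest rise, lie on the same stretch of chromosome 5, and the DNA before their starts is shown with that of Egfr and Erbb2 for comparison. In GRCm38 with GENCODE M21, Areg spans chr5:91139599-91148432 on the plus strand and Btc spans chr5:91357261-91402994 on the minus strand. Their ligand relatives Epgn (chr5:91027464-91035215) and Ereg (chr5:91074622-91093646) lie beside them, and the 4 genes together cover 375.5 kb. Each sequence is the 250 bases before the RefSeq start (GRCm38.p6), read 5′ to 3′ on the gene's strand: chr5:91139349-91139598 for Areg, chr5:91402995-91403244 for Btc, chr11:16751953-16752202 for Egfr and chr11:98412234-98412483 for Erbb2, whose GENCODE gene begins inside that window, at 98412470. Capitals mark matches, on either strand, to any of 5 motifs. The cyclic AMP response element was searched as TGACGTCA, and the AP-1 element, bound by factors of the FOS and JUN families, as TGANTCA, where N is any base. The element of the TEAD factors, which work with the growth regulator YAP, was searched as GGAATG. The TATA box, which places the start of transcription in some promoters, was searched as TATAAAA. The GC box, which binds factors of the SP1 family, was searched as GGGCGG.
Areg: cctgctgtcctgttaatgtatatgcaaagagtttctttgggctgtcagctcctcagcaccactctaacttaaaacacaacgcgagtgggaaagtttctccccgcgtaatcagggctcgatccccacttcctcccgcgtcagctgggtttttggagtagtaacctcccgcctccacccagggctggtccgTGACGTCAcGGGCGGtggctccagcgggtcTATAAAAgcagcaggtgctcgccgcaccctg
Btc: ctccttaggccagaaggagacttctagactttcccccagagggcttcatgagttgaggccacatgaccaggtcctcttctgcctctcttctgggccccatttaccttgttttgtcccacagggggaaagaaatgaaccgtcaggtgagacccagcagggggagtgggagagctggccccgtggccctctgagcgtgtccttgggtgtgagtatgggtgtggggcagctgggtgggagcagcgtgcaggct
Egfr: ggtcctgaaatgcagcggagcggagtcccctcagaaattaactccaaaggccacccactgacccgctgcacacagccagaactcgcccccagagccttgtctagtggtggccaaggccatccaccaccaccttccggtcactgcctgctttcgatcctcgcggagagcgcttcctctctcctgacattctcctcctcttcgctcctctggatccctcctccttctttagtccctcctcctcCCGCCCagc
Erbb2: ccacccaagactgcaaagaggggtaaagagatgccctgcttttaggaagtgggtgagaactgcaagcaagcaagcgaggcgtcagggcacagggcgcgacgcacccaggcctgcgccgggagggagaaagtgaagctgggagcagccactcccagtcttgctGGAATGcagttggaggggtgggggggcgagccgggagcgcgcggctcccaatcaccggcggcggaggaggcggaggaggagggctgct
The Areg window held a cyclic AMP response element, which is in 1.55% of the 32851 windows of this length, a TATA box, in 4.98%, and a GC box, in 32.7%. These matches began 61, 31 and 52 bases before the start. The Egfr window held a GC box and the Erbb2 window a TEAD match, found in 12.6% of all windows. No listed motif matched in the Btc window, and AP-1 letters, in 6.75% of all windows, were in none of the 4 windows. A match is a string of letters and was not tested for binding.

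The other ligand genes of the family were read at low levels as well. Ereg, which encodes epiregulin and neighbours Areg, had 4, 2 and 2 counts in labelled wild-type and 12, 8 and 12 counts in labelled Mdr2-knockout replicates 1, 2 and 3. Its scaled ratio of group sums was 3.19 with an exact 95% counting interval of 1.44 to 8.01, and its groups did not overlap. It was under the filter, and the fit without that filter gave an edgeR adjusted p of 0.0641. Ereg shares 141 exon bases with the antisense gene Gm19610. Epgn had 2 counts in all, both in labelled Mdr2-knockout replicate 3.

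Nrg1, the neuregulin ligand of ERBB3 and ERBB4, had 7, 12 and 11 counts in labelled wild-type and 77, 135 and 75 counts in labelled Mdr2-knockout replicates 1, 2 and 3. It rose 7.55-fold (log2 fold change 2.92, SE 0.34, edgeR adjusted p = 0.000177), with no overlap and a call in all 14 alternative fits. Only 2 labelled wild-type libraries reached the filter's minimum for Nrg1, and its exons share 482 bases with the opposite-strand Gm26578. Nrg4, which encodes a hormone-like neuregulin, had 29, 49 and 104 counts against 34, 67 and 61 counts. Its log2 fold change was -0.49 (SE 0.48, edgeR adjusted p = 0.465), a value set largely by labelled wild-type replicate 3, without which it was 0.13. Nrg4 shares 368 exon bases with Fbxo22 on the opposite strand, so its reads are uncertain. Nrg2 had 0 counts in all 6 libraries.

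Levels of the 8 genes were ordered as FPKM, the deposited values per kilobase of transcript. Rankings by reads or CPM elsewhere in the text carry no weight for length. In labelled wild-type libraries the order was Egfr at 53.5 ± 6.57 FPKM, Erbb3 at 25.4 ± 1.14, Tgfa at 5.97 ± 0.497, Btc at 0.367 ± 0.143, Hbegf at 0.265 ± 0.0396, Erbb2 at 0.252 ± 0.0628, Egf at 0.111 ± 0.00611 and Areg at 0 FPKM (SD, n = 3). The ranges of neighbours in this order overlapped for Btc with Hbegf and for Hbegf with Erbb2, and not for the others. In labelled Mdr2-knockout libraries the order of the first 6 was the same, with Egfr at 56.6 ± 12.3, Erbb3 at 30.5 ± 6.02, Tgfa at 8.63 ± 0.479, Btc at 2.31 ± 0.319, Hbegf at 0.833 ± 0.303 and Erbb2 at 0.739 ± 0.169 FPKM (SD, n = 3). There Btc stood clear of Hbegf, while Hbegf still overlapped Erbb2 and Areg (0.230 ± 0.208 FPKM) overlapped Egf (0.147 ± 0.0499 FPKM). The deposited FPKM divide by the library total without TMM factors, so they serve to order genes within a group and not to compare the groups. With TMM factors the means in labelled wild-type and labelled Mdr2-knockout libraries were 59.3 and 51.1 FPKM for Egfr. For Tgfa they were 6.60 and 7.79 FPKM.

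Within a library the make-up of the family does not depend on library scaling. Tgfa took 88.1%, 89.2% and 89.7% of the summed FPKM of the 5 ligand genes in labelled wild-type replicates 1, 2 and 3, and 74.9%, 65.1% and 73.6% in labelled Mdr2-knockout replicates 1, 2 and 3. The share of Btc went the other way, from 7.14%, 5.08% and 3.94% to 18.5%, 20.9% and 17.5%. Neither share overlapped between the groups. The mean differences were -17.7 percentage points for Tgfa and 13.6 for Btc, and each gave a two-sided exact permutation p of 0.1, the smallest that 3 against 3 libraries allow (0.167 after Benjamini-Hochberg adjustment over the 10 make-up values compared). The design therefore cannot reach 0.05 for these values. Without the weight per length, on raw counts, the differences were -11.7 and 9.74 percentage points. Hbegf made up 3.98% ± 0.733 and 6.77% ± 2.07 (SD, n = 3 per group) and Egf 1.67% ± 0.212 and 1.21% ± 0.395. Areg made up 0.406%, 3.56% and 1.52% in labelled Mdr2-knockout replicates 1, 2 and 3.

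Among the receptors the make-up was dominated by Egfr in both groups, at 67.4% ± 2.96 and 64.1% ± 7.56 of the summed FPKM of Egfr, Erbb2 and Erbb3 (SD, n = 3 per group; two-sided exact permutation p = 0.7). Erbb2 rose as a share from 0.317% ± 0.0627 to 0.857% ± 0.252, with no overlap. The log2 ratio of Erbb2 to Egfr was higher by 1.49 in the labelled Mdr2-knockout libraries (two-sided exact permutation p = 0.1, the smallest possible), and that of Erbb3 to Egfr differed by 0.18 (p = 0.7, same exact permutation test), with overlap.

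**Figure D3:**
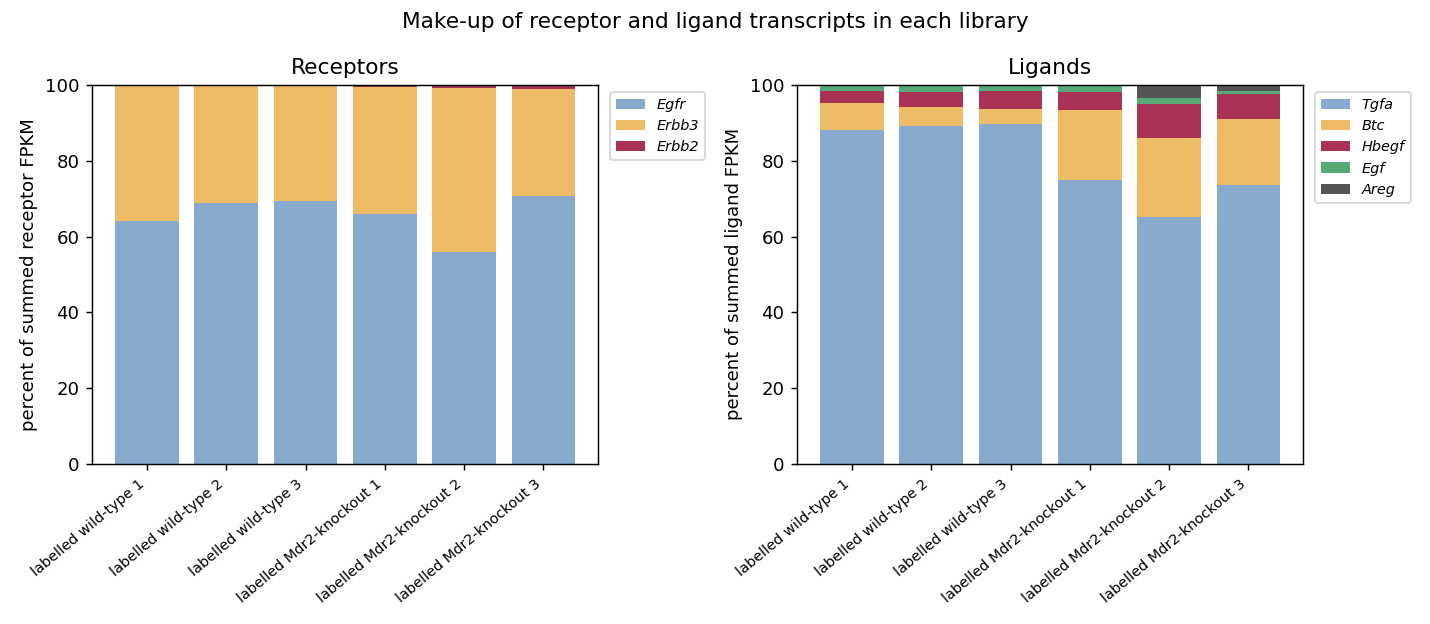
Stacked share (y axis, percent of summed FPKM) of each receptor gene (left) and each ligand gene (right) in the 3 labelled wild-type and 3 labelled Mdr2-knockout libraries. Tgfa falls from 88.1% to 89.7% of ligand FPKM to 65.1% to 74.9%, Btc fills most of the difference, and Egfr with Erbb3 make up nearly all receptor FPKM in each library.

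In some lists below, certain genes reached the low-count minimum in all 3 labelled Mdr2-knockout libraries but in fewer than 3 labelled wild-type libraries. They are said to have met the filter only through the labelled Mdr2-knockout libraries. This favours genes that are higher there, so their number is given beside the counts of those lists. The signal transducers and the hepatocyte, endothelial and lymphocyte markers held 0 such genes. The shares over all tested genes, 20.9% higher and 16.3% lower, are the background for these counts. Of 9 tested genes on a list of sheddases and their partners, 5 rose, 0 fell and 4 missed the threshold, with a median log2 fold change of 0.58. With total-count scaling 8 were higher, and leaving out 1 library gave 3 to 5. Adam8 met the filter only through the labelled Mdr2-knockout libraries. The iRhom genes Rhbdf1 and Rhbdf2, whose products guide the sheddase ADAM17 to the cell surface, rose from 5.12 ± 0.893 to 13.7 ± 0.125 CPM and from 16.3 ± 0.740 to 24.3 ± 4.05 CPM (SD, n = 3 per group). The metalloprotease genes Adam19 and Adam8 rose 2.50-fold and 2.22-fold (edgeR adjusted p = 0.00487 and 0.0216). Adam8 did not pass when labelled Mdr2-knockout replicate 1 or labelled wild-type replicate 2 or 3 was dropped. Adam17 and Adam10, the main sheddases of these ligands and chosen after their values were seen, had log2 fold changes of 0.14 and 0.19 and did not pass (edgeR adjusted p = 0.237 and 0.0814).

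Of 23 tested signal transducers behind the receptors, 3 rose, 7 fell and 13 missed the threshold, with a median log2 fold change of -0.13. These counts depended on the scaling: 8 were higher and 1 lower with total counts, 2 were lower with upper-quartile scaling, and leaving out 1 library gave 2 to 6 lower. The kinase gene Src rose from 2.35 ± 0.919 to 10.5 ± 0.835 CPM (SD, n = 3 per group; log2 fold change 2.15). The ERK kinase gene Map2k2 fell from 127 ± 6.07 to 85.6 ± 11.3 CPM, a log2 fold change of -0.57 (edgeR adjusted p = 0.00134), and was called with total counts too. Pik3r1, a regulatory subunit of PI3-kinase, had a log2 fold change of -0.39, which did not pass with total counts (-0.10).

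Of 18 tested negative regulators, 4 rose, 3 fell and 11 missed the threshold, shares near the background of 20.9% and 16.3%, and the median log2 fold change was 0.00. Spry2 and Dusp5, both among the 4, met the filter only through the labelled Mdr2-knockout libraries. With total counts 7 were higher and 0 lower. DESeq2 and the stricter count filter each gave 2 higher. Errfi1, a feedback inhibitor that binds EGFR itself, was the most abundant of those called and went from 2128 ± 156 to 1508 ± 162 CPM (SD, n = 3 per group), a log2 fold change of -0.50 with an edgeR adjusted p of 0.00406, and it was not called under total counts (-0.20). Spry1, an inhibitor of the RAS-ERK route, rose from 4.61 ± 0.338 to 7.73 ± 1.27 CPM, and Cbl, which marks activated EGFR for breakdown, from 19.6 ± 1.14 to 27.0 ± 3.37 CPM. Dusp5, an ERK phosphatase gene, had a log2 fold change of 1.14 (edgeR adjusted p = 0.0276), which failed under DESeq2 and when labelled Mdr2-knockout replicate 1 or 2 or labelled wild-type replicate 2 or 3 was dropped.

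Of 12 tested early and ERK response genes, 4 rose, 0 fell and 8 missed the threshold, with a median log2 fold change of 0.18. Ccnd1, the cyclin D1 gene, rose from 5.16 ± 0.996 to 25.2 ± 1.36 CPM (SD, n = 3 per group; log2 fold change 2.29). Ier3 rose from 0.318 ± 0.230 to 1.85 ± 0.271 CPM and met the filter only through the labelled Mdr2-knockout libraries, and the transcription factor genes Elk3 and Myc had log2 fold changes of 0.54 and 0.90. Myc did not pass when any 1 labelled Mdr2-knockout library or labelled wild-type replicate 2 was dropped. Fos, the classical early gene, and the ERK target Etv5, both chosen after their values were seen, had log2 fold changes of -0.52 and -0.54 and did not pass (edgeR adjusted p = 0.5 and 0.054).

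**Figure D4:**
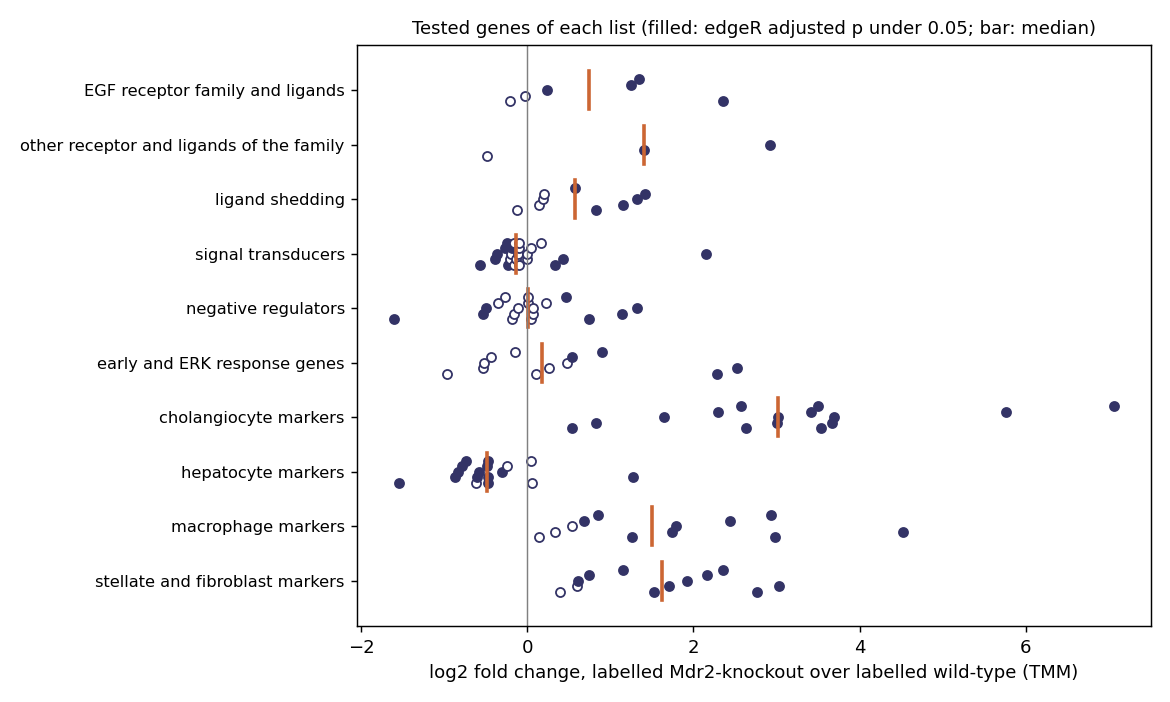
Log2 fold change (x axis, TMM scaling) of each tested gene in the EGF receptor family and ligands, the other genes of the family, 4 pathway lists and 4 cell type marker lists, filled where the edgeR adjusted p is under 0.05, with the list median as a bar. The medians are 0.74 for the family, 0.58 for ligand shedding, -0.13 for signal transducers, 3.02 for cholangiocyte markers and -0.48 for hepatocyte markers.

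Markers of several cell types moved with these results. Cholangiocyte markers were higher for 15 of 15 tested genes, with a median log2 fold change of 3.02, and their summed level ranged from 99.1 to 132.5 CPM in labelled wild-type and from 548.7 to 576.8 CPM in labelled Mdr2-knockout libraries. Of the 15, 6 met the filter only through the labelled Mdr2-knockout libraries. Spp1 and Cdh1, the most abundant markers of the list, had log2 fold changes of 3.02 and 1.65. Most of the summed level was theirs. Their means were 36.1 and 41.8 CPM in labelled wild-type and 293 and 131 CPM in labelled Mdr2-knockout libraries. Stellate and fibroblast markers were higher for 10 of 12 (median 1.62, summed level 284.9 to 437.1 against 693.1 to 838.6 CPM, with Dcn at 0.74 and Reln, not called, at 0.39), and macrophage markers for 9 of 12, or 7 to 11 over the alternative fits (median 1.5, 255.1 to 459.2 against 581.6 to 669 CPM, with Lyz2 at 1.75 and Cd5l, not called, at 0.34). Of the markers called higher, 1 stellate and fibroblast marker and 2 macrophage markers met the filter only through the labelled Mdr2-knockout libraries. Hepatocyte markers were lower for 12 and higher for 1 of 17 (median -0.48, summed level 169979 to 180491 against 114187 to 118820 CPM). With total-count scaling 6 hepatocyte markers were lower and 3 higher. Alb had a log2 fold change of -0.79 and Trf, not called, -0.25, which turned to 0.05 with total counts. The log2 fold changes of Erbb2 (1.25), Tgfa (0.24), Hbegf (1.35) and Btc (2.36) lay between 0 and the cholangiocyte median. All of these but Btc also lay below the stellate and fibroblast median and the macrophage median. Those of Egfr (-0.21) and Erbb3 (-0.03), neither called, lay between 0 and the hepatocyte median. With total counts they were 0.08 and 0.26. The part of these cell types in the values of the family was not tested.

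Neutrophil markers were higher for 3 of 4 tested genes, 2 of which met the filter only through the labelled Mdr2-knockout libraries, with summed levels of 3.94 to 8.90 and 12.8 to 15.9 CPM in the labelled groups. Ly6g was at 0 in all libraries, and Csf3r had a log2 fold change of 1.31 and S100a9, not called, 0.86. Of 10 endothelial markers 2 rose, among them Stab2 (0.29), and 3 fell, among them Kdr (-0.36). With total counts 5 rose and 1 fell, and leaving out 1 library gave 0 to 2 that rose (0 without labelled Mdr2-knockout replicate 1 or labelled wild-type replicate 2). They summed to 301.4 to 341.9 and 311.2 to 322.9 CPM. Stab2 did not pass when labelled Mdr2-knockout replicate 1 or 3 or labelled wild-type replicate 1 or 2 was dropped, and Kdr not with total counts. Of the lymphocyte markers only Zap70 (log2 fold change -1.86) and Cd79a (-0.08, not called; 0.21 with total counts) were tested, with summed levels of 8.90 to 12.3 and 5.54 to 6.35 CPM over the whole list. The mesothelial marker Msln, which met the filter only through the labelled Mdr2-knockout libraries, had a log2 fold change of 2.82, from a summed list level of 0.702 to 0.954 to one of 2.11 to 4.07 CPM. Their part in the family's values was not tested either.

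Genes with a pattern like that of each tested member were sought by the Pearson correlation of log2 CPM over the 6 libraries, among 11574 genes with a mean of at least 1 CPM. With 6 libraries in 2 groups, values near 1 are common and are given as a description. Egfr ran closest to Cherp, Bcl7a and Slc35c2 (r = 0.982, 0.98 and 0.977), and Erbb3 to Lpcat3, Prmt6 and Rec8 (r = 0.988, 0.97 and 0.963). Erbb2 ran closest to Rere, Zfp7 and Selenon (r = 0.996, 0.995 and 0.994) and Tgfa to Lcmt1, Nemf and Laptm4b (r = 0.995, 0.994 and 0.991). Hbegf ran closest to Etaa1, Taf4b and Rtkn (r = 0.992, 0.991 and 0.991) and Btc to Plekha1, H2-DMa and the macrophage elastase gene Mmp12 (r = 0.9995, 0.999 and 0.998). Mmp12 rose far more than Btc, with a log2 fold change of 4.53 against 2.36.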

How the data were processed

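RNA-seq of 6 mouse liver libraries was used, 3 per labelled group. The authors deposited whole-number read counts per gene symbol and FPKM values. Per the submitters' processing notes, the build was mm10 and the tools were HISAT2, Bowtie2, HTSeq, StringTie, Cufflinks, DESeq, Trimmomatic and SAMtools. Tool versions, annotation and strandedness were not given in the sources used here. Each FPKM the authors deposited was the count divided by library total and a fixed length per gene, so FPKM is no independent measurement. Columns lettered M were read as Mdr2-knockout and columns lettered N, by elimination, as wild-type, with numbers as in the titles; 0 columns were left over. Each direction rests on that reading.

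Counts were tested with edgeR 4.0.16 (R 4.3.3): filterByExpr defaults (minimum count 10, minimum total 15), TMM factors, robust quasi-likelihood fit with group as the only term, and Benjamini-Hochberg adjustment over 12612 genes. The SE of a fold change was derived from its F statistic. Shares and ratios within a library used exact permutation tests (scipy 1.17.1). Genes under the filter are given by raw counts, with exact 95% counting intervals or a floor of 3 counts. On simulated counts for the 12612 genes, recovery pooled over all expression levels was 40% at a 1.5-fold change, 76.9% at 2-fold and 95.3% at 4-fold, and 4.86% of calls were false. Only 65, 65 and 64 tested genes carried these changes, in random directions, whereas 37.1% of tested genes were called in the data. The simulated rates therefore may not hold for these data. The members and the gene lists were chosen with earlier results of these data known, so counts over lists are descriptions. Named genes were the members and their relatives, Abcb4, the 4 smallest p among called genes of each pathway list, the 2 most abundant tested genes of each marker list, and the 3 genes most like each tested member (log2 CPM, prior count 2). 1 gene that this rule names is not reported here. Alternatives were DESeq2 1.42.0, limma-voom (limma 3.58.1), scaling by RLE, by upper quartile or by total counts, no filter, at least 50 counts in 3 libraries, a replicate block, and each library left out. No 2 libraries of a group agreed within sampling noise, since the chi-square per degree of freedom was never below 16.0.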

Additional observations from a re-analysis of the deposited data

How the results depend on the processing

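Over 14 alternative fits, Btc and Erbb2 stayed higher with a call in each, and Egfr and Erbb3 were called in none. With total-count scaling 5943 genes were called higher and 330 lower, and the log2 fold changes of Egfr and Erbb3 became 0.0833 and 0.26. Erbb3 was also above 0 with upper-quartile scaling (0.0289) and with at least 50 counts in 3 libraries (0.00934). The filter of 50 counts left Hbegf untested. The call of Tgfa was lost with DESeq2 (0.22). Leaving out each library in turn gave -0.12 to 0.13 for Erbb3, 0.19 to 0.28 for Tgfa, 1.04 to 1.59 for Hbegf and -0.83 to 0.13 for Nrg4. On raw counts in place of FPKM the differences in share were 0.35 percentage points for Erbb2, -11.7 for Tgfa, 0.54 for Areg and 9.74 for Btc, because the weight per length was dropped. The cause of the other changes was not tested.

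In the pathway lists, total counts gave 8 higher for ligand shedding, 8 higher and 1 lower for signal transducers, and 7 higher and 0 lower for negative regulators. Signal transducers had 2 lower with upper-quartile scaling and 4 with the filter of 50 counts. Negative regulators had 2 higher with that filter and 2 with DESeq2. Early and ERK response genes had 1 lower with DESeq2, RLE, no filter and the replicate block. With each library left out, 3 to 5 ligand shedding genes and 2 to 3 negative regulators were higher, and 2 to 6 signal transducers and 0 to 1 response genes were lower. Over all alternatives, cholangiocyte markers had 15 to 16 higher, stellate and fibroblast markers 9 to 12, neutrophil markers 1 to 4, mesothelial markers 0 to 2 and endothelial markers 0 to 5, while 6 to 13 hepatocyte and 1 to 3 endothelial markers were lower.

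Same-numbered libraries of the groups showed little shared deviation (r = 0.0842, 0.0449 and -0.0759 across genes). A single correlation over all genes cannot exclude that the numbers pair them. The libraries numbered 1 correlated best with each other, and those numbered 2 and 3 did not. With the replicate block 2576 genes were called higher and 1992 lower, and no call of a member changed. Depth limits Areg and Egf: a floor of 3 counts in a library equals 0.149 to 0.192 CPM.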
